A study of Mus musculus with 120 samples.

Results

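Overexpression of the transcription factor CREB was compared with overexpression of the red fluorescent protein mCherry in the cerebral cortex of wild-type mice. The comparison takes every library titled for CREB in cortex (n = 4) and every library titled for mCherry in cortex (n = 4), 8 of the 120 libraries of a study of sleep in mice. All 8 came from C57BL/6J mice with the genotype WT, which received an adeno-associated virus (AAV) behind the eye 3 weeks before dissection at ZT12.5, just after the lights went off. Polyadenylated RNA of the tissue was sequenced. The labels do not give the promoter of the vectors, the cells they reached, or the age and sex of the mice. The 4 replicates of a group were described as biological, but no label ties a library to an animal, so p-values measure the spread between these libraries. A pair of further comparisons were read beside it. One is CREB against eGFP, a green fluorescent protein, in cortex of Sleepy mice, whose genotype is Sik3E13delta/+ (n = 4 and 4). The other is CREB against mCherry in wild-type thalamus (n = 4 and 4). Both were sampled at ZT12.5 and share no library with the wild-type cortex comparison. Whether the wild-type thalamus and cortex libraries came from the same mice is not given by the labels. The Sleepy groups differ from the wild-type groups in genotype, in control vector and in the unit of their files together.

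CREB is a leucine zipper protein that binds, as a dimer, the cAMP response element (CRE) in promoters. Phosphorylation by kinases that respond to cAMP and calcium recruits the coactivators CBP and p300, and the CRTC proteins bind CREB once they are free of phosphorylation by salt-inducible kinases such as SIK1 and SIK3. In neurons CREB is known for genes induced by activity, for neuropeptide genes such as somatostatin, and for its own inhibitors, among them Crem and Sik1.

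The 8 libraries held 14.84 to 27.81 M reads assigned to genes, recovered from the deposited values. Replicate 4 of each group was a library of another kind. The mean log2 RPKM of 78 ribosomal protein genes was 2.04 to 2.07 in these 2 libraries and 4.26 to 4.48 in the other 6, and Gapdh stood at 5.85 to 6.11 against 51.4 to 59.7 RPKM (reads per kilobase of transcript, scaled to the library's depth). Both kinds carried the markers of cortex. Slc17a7, the vesicular glutamate transporter of cortical neurons, was at 116 to 138 RPKM in the usual kind and 134 to 144 in the low kind, and the thalamic transcription factor gene Tcf7l2 was under 0.63 RPKM in both (0.448 to 0.624 and 0.513 to 0.609) against 27.6 to 31.0 in thalamus. All 8 thalamus libraries were of the low kind. Because each group holds 1 low-kind library, the kind does not separate the groups, and it entered the fit as a term.

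Creb1, the gene of the delivered protein on chromosome 1 (chr1:64532645-64604548, GRCm38), was read first. In the mCherry libraries 1 to 4 it stood at 3.18, 3.36, 3.48 and 3.83 RPKM. In the CREB libraries it stood at 6.07, 7.32, 5.42 and 7.28 RPKM. The lowest CREB library lay above the highest mCherry library. Creb1 rose 1.88-fold, a log2 difference of 0.91 ± 0.06 (SE, limma, adjusted p = 0.00058), and passed with every one of the 8 libraries left out in turn (0.86 to 0.94). The difference in the low-kind pair alone was 0.97 on the log2 scale. Reads of the delivered and the native transcript are counted together. In bulk tissue, fewer cells with the transcript and less transcript per cell cannot be told apart.

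The fitted difference of Creb1 was larger in the other comparisons. In Sleepy cortex it stood at 2.05 to 2.59 FPKM (fragments in place of reads) with eGFP and at 6.69 to 10.6 with CREB, 3.13-fold (adjusted p = 0.0064). In wild-type thalamus it stood at 3.71 to 3.99 RPKM with mCherry and at 9.39 to 13.4 with CREB, 3.10-fold (adjusted p = 0.00012). The test of cortex against thalamus gave a log2 difference of -0.70 ± 0.12 (SE, limma, adjusted p = 0.037), which did not pass with the replicate number as a block (adjusted p = 0.077). The test of wild-type against Sleepy cortex gave -0.73 and did not pass (adjusted p = 0.98).

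Of 16081 genes tested, 11 had an adjusted p under 0.05 (limma with Benjamini-Hochberg adjustment), which is 0.0684% of them. Such genes are named called below. Of the 11, 8 rose with CREB (0.0497% of all genes) and 3 fell (0.0187%). Hist1h2bb, Cdk15 and Mustn1 passed the filter of 10 mean reads only through the group where they are high, with mean reads of 0.5 in the CREB group for Hist1h2bb and of 6.2 and 9.5 in the mCherry group for Cdk15 and Mustn1, so their difference was partly set by the filter. An unadjusted p under 0.05 was found for 8.43% of all genes, 4.62% higher and 3.81% lower, and 51.0% of all genes lay above 0. The groups of 4 did not overlap for 1.81% of all genes as deposited and for 4.57% after scaling between libraries. Called genes were chosen by p from these same libraries, so groups that do not overlap are no added support for them. With the replicate number as a block Creb1 alone passed, and the other 10 had adjusted p of 0.089 to 0.12. Creb1 alone passed as well without any 1 of replicates 1 to 3 of either group, while 5 genes passed without CREB replicate 4 and 5 without mCherry replicate 4. Of the 10 calls beside Creb1, 8 were made with the full set of libraries and in none of the sets that leave 1 out. Crhbp and Gm12744 passed without replicate 4 of either group. With either replicate 4 left out, the term for library kind fits the other replicate 4 exactly. Both fits thus rest on replicates 1 to 3 and count as 1 check.

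**Figure D1:**
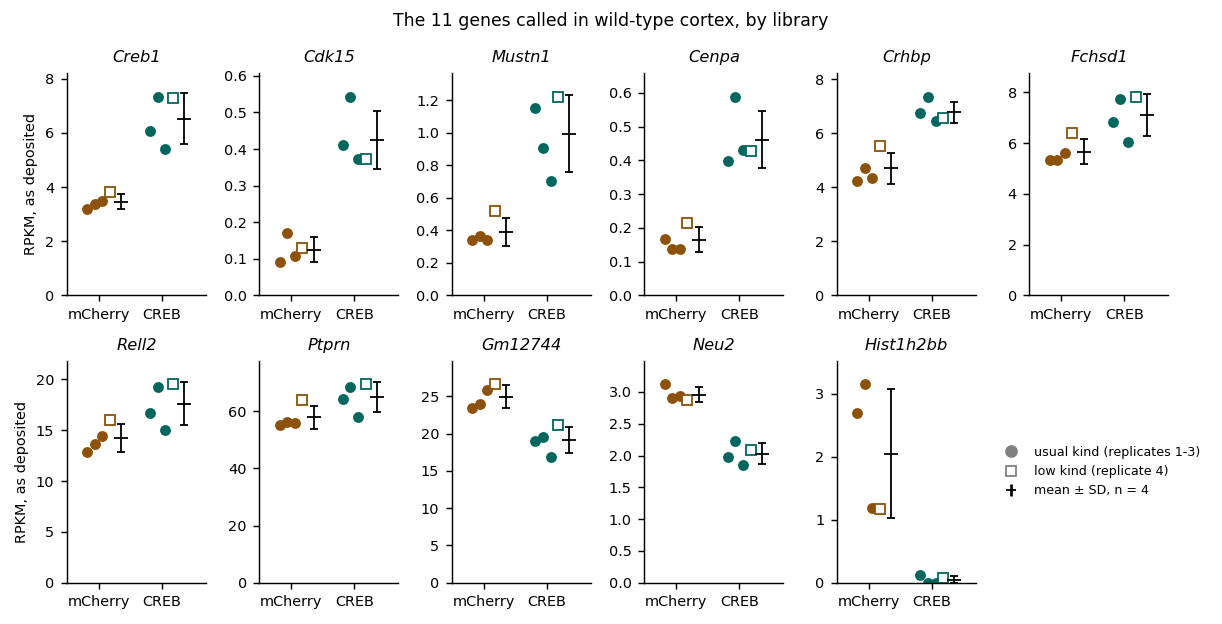
RPKM as deposited (y axes from 0) of the 11 called genes in each mCherry and CREB library of wild-type cortex, with circles for replicates 1 to 3, squares for the low-kind replicate 4, and the mean ± SD (n = 4). Creb1 stands at 3.18 to 3.83 with mCherry and 5.42 to 7.32 with CREB, and values overlap between groups for Rell2, Ptprn and Fchsd1.

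Crhbp and Ptprn, both called, belong to peptide signalling. Crhbp (chr13:95431371-95444924) encodes the secreted protein that binds corticotropin-releasing hormone. Its values were 4.22, 4.72, 4.36 and 5.52 RPKM with mCherry and 6.74, 7.34, 6.47 and 6.55 with CREB, so that the groups did not overlap. It rose 1.46-fold (log2 0.54 ± 0.06 SE, limma, adjusted p = 0.036). It was also called without CREB replicate 4 or mCherry replicate 4, fits that both rest on the usual-kind libraries. The low-kind pair differed less, by 0.31 on the log2 scale. Crh, the hormone itself, was at 1.66 to 2.12 RPKM with mCherry and 1.67 to 2.76 with CREB (log2 0.07, adjusted p = 0.93), and its receptor gene Crhr1 differed by 0.10 (adjusted p = 0.82).

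Ptprn (chr1:75247027-75264502) encodes IA-2, a membrane protein of dense-core vesicles, the granules that store neuropeptides. It stood at 55.3, 56.3, 56.0 and 63.9 RPKM with mCherry and at 64.4, 68.6, 57.9 and 69.4 with CREB. As deposited the groups overlapped, and after scaling between libraries they did not. It rose 1.14-fold (log2 0.19 ± 0.03 SE, limma, adjusted p = 0.042), a small difference in a gene with a mean of 5376 reads. The unnamed gene Gm28294 overlaps it on the opposite strand, and no source states the strand setting of the counting.

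The other called genes that rose were low in this tissue or share reads. Cdk15, a gene of the cyclin-dependent kinase family, stood at 0.0922, 0.17, 0.107 and 0.13 RPKM with mCherry and 0.412, 0.542, 0.374 and 0.373 with CREB (log2 1.24 ± 0.15 SE, limma, adjusted p = 0.042), on a mean of 14.4 reads. Mustn1, named for expression in muscle and skeleton, stood at 0.344, 0.363, 0.343 and 0.52 RPKM against 1.15, 0.908, 0.702 and 1.22 (log2 1.16 ± 0.13, adjusted p = 0.036). Cenpa, the histone H3 variant of centromeres, stood at 0.168, 0.138, 0.138 and 0.216 RPKM against 0.399, 0.588, 0.432 and 0.429 (log2 1.10 ± 0.15, adjusted p = 0.042). In each of these 3 genes every CREB library lay above every mCherry library, beside groups without overlap for 1.81% of all genes. None of them was called once any single library was left out.

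Rell2 and Fchsd1 lie on chromosome 18 and overlap on opposite strands, so their reads may not be separable. They are counted as 2 genes throughout. Rell2, of the RELT family, stood at 12.9, 13.6, 14.4 and 16 RPKM with mCherry and at 16.7, 19.2, 15.0 and 19.5 with CREB (log2 0.33 ± 0.04 SE, limma, adjusted p = 0.042). CREB replicate 3 lay below mCherry replicate 4 as deposited. Fchsd1, a protein with F-BAR and SH3 domains, gave a log2 difference of 0.34 ± 0.05 (adjusted p = 0.042).

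Of the 3 genes that fell, Neu2, a sialidase, stood at 3.12, 2.91, 2.94 and 2.87 RPKM with mCherry and at 1.97, 2.23, 1.85 and 2.08 with CREB. The groups did not overlap, and the log2 difference was -0.50 ± 0.07 (SE, limma, adjusted p = 0.042). Neu2 overlaps Ngef and Gm6153 on the opposite strand and Gm17181 on the same strand, so its reads may not be separable. Gm12744, an unnamed gene that may share reads with an overlapping gene, fell by 0.37 on the log2 scale (adjusted p = 0.024).

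Hist1h2bb, 1 of the many near-identical genes of histone H2B, was called lower on a mean of 10.5 reads. It stood at 2.69, 3.15, 1.19 and 1.17 RPKM with mCherry and at 0.12, 0, 0 and 0.0795 with CREB (limma, adjusted p = 0.047). The size of its fitted log2 difference ran from -1.48 to -5.83 with the pseudocount and no fold is given. Hist1h2bf and Hist1h2bm, chosen after their values were seen, did not overlap between the groups either, with Hist1h2bm at 1.71 to 4.11 RPKM with mCherry and 0 to 0.289 with CREB. Hist1h2bm did not pass (adjusted p = 0.24), and Hist1h2bf was under the filter with a mean of 5.1 reads. For Hist1h2bb the HDAC4CA libraries of wild-type cortex, at 0.112 to 0.429 RPKM, lay below every mCherry library too. The mCherry thalamus libraries were at 0.422 to 2.47 RPKM, the CREB thalamus libraries at 0 to 0.276, and both Sleepy groups at 0.107 to 0.842 FPKM. Every value of Hist1h2bb over 1 RPKM came from an mCherry library, and whether these reads come from the native gene was not tested.

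**Figure D2:**
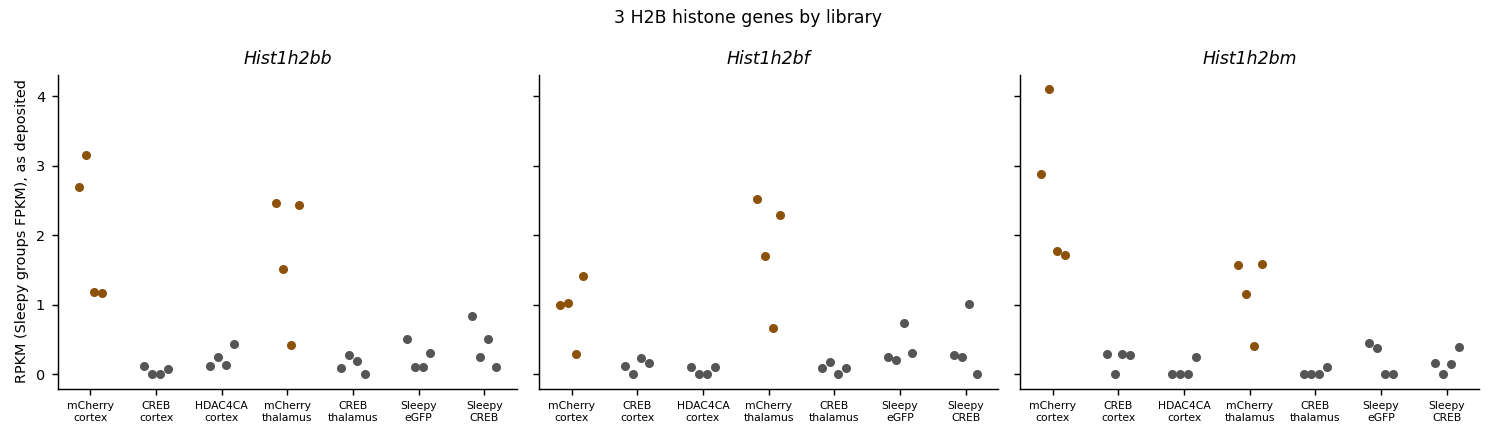
Deposited values (RPKM, or FPKM in the Sleepy groups; y axis) of 3 H2B genes in each library of 7 groups, with mCherry groups in brown and 4 libraries per group. Hist1h2bb is at 1.17 to 3.15 in the mCherry cortex libraries and at 0 to 0.12 in the CREB cortex libraries.

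The next genes by p that did not pass, 8 higher and 8 lower, are given as values without a call. Only genes whose scaled groups did not overlap within the usual kind were taken. A lack of overlap in them was thus partly set by the choice. Of the 8 higher ones, Cort, Pnoc and Npy encode neuropeptides. Cort encodes cortistatin, a peptide of cortical interneurons related to somatostatin and known for effects on sleep. It stood at 1.71, 2.87, 2.69 and 2.77 RPKM with mCherry and at 5.22, 6.24, 4.07 and 5.42 with CREB, 2.09-fold with no overlap (limma, adjusted p = 0.065). Pnoc, the precursor of nociceptin, stood at 0.965, 1.21, 1.22 and 1.29 RPKM against 1.66, 2.25, 1.86 and 1.9, 1.61-fold with no overlap (adjusted p = 0.063). Npy, the precursor of neuropeptide Y, stood at 37.5, 39.5, 39.6 and 47.1 RPKM against 46.4, 50.1, 43.2 and 48.2, 1.17-fold (adjusted p = 0.063). Its groups overlapped as deposited. It passed without CREB replicate 4 or mCherry replicate 4, fits that both rest on the usual-kind libraries.

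Scg2, the granule protein secretogranin II, stood at 35.4, 39.2, 40.1 and 43.1 RPKM with mCherry and at 45.3, 49.0, 40.2 and 52.9 with CREB (log2 0.26 ± 0.04 SE, limma, adjusted p = 0.057). CREB replicate 3 lay within the mCherry range. Sik1, the salt-inducible kinase that CREB induces and that restrains CRTC proteins, stood at 2.70, 2.83, 2.48 and 3.41 RPKM against 3.63, 3.61, 3.29 and 4.34 (log2 0.39 ± 0.06, adjusted p = 0.097), and CREB replicate 3 lay below mCherry replicate 4. The remaining higher genes were Lgals1, a galectin (log2 0.50), Taf1, a subunit of the general factor TFIID (0.25), and Ogdh, a subunit of the 2-oxoglutarate dehydrogenase of mitochondria (0.17). Among the 8 lower genes, Oprd1, the delta opioid receptor, stood at 3.13 to 3.78 RPKM with mCherry and 2.43 to 2.91 with CREB (log2 -0.32 ± 0.06, adjusted p = 0.19). Cplx2, the complexin of synaptic vesicle release, stood at 148 to 175 against 121 to 148 RPKM (log2 -0.17 ± 0.03, adjusted p = 0.19). The other lower genes were Lzts3, Parm1, Vstm2l, Hist2h2be, Slc8a2 and Kcnj12, with log2 differences of -0.15 to -0.44.

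With voom on reads recovered from the RPKM values, 44 genes were called instead of 11, and Cort (adjusted p = 0.0058), Pnoc (0.025), Scg2 (0.0022) and Sik1 (0.0086) were among them. Npy did not pass there (0.14).

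The 150 bases before the RefSeq start (GRCm38.p6) are shown for 5 peptide and granule genes chosen because they hold a motif of the CRE there, which CREB binds. Npy and Pnoc, which also encode peptides, are not shown. All 5 genes lie on the minus strand and the sequences read 5′ to 3′ along it. Crhbp is at chr13:95444832-95444981, Ptprn at chr1:75264209-75264358, Cort at chr4:149126764-149126913, Scg2 at chr1:79440027-79440176 and Sst at chr16:23890845-23890994. Capitals mark the CRE palindrome TGACGTCA or its core TGACG, written CGTCA where it lies on the other strand.
Crhbp: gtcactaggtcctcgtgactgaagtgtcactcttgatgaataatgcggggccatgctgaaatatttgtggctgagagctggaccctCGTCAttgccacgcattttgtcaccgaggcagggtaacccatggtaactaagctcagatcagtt
Ptprn: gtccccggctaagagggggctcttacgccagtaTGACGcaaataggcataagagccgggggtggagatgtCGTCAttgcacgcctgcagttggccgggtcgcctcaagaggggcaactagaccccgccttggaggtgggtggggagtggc
Cort: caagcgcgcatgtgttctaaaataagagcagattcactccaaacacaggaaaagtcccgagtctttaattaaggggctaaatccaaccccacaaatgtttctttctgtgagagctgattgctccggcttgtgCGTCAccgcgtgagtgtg
Scg2: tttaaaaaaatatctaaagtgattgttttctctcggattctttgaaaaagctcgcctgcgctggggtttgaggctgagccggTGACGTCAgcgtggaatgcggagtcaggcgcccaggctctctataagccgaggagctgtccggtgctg
Sst: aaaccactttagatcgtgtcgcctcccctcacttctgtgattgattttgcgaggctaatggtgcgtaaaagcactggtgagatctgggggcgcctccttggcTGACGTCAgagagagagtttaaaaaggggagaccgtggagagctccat

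Scg2 and Sst, the somatostatin gene, hold the whole palindrome 68 and 48 bases before the start. Crhbp, Cort and Ptprn hold the core, at 64 bases in Crhbp, 18 in Cort, and 117 and 80 in the upstream of 2 listed starts of Ptprn. Among all 32851 promoters of the table (250 bases before to 50 after the start), 1.79% held the palindrome and 20.8% the core on either strand, the palindrome included. Of the 16081 genes tested, 11261 matched the table by symbol, and 34.5% of these held the core. Promoters of Creb1, Mustn1, Cdk15, Cenpa and Neu2 held none in this window, and of the 7 called genes that matched 28.6% held the core, against 34.5% of all tested. The core was found in 44.9% of 517 matched genes with an unadjusted p under 0.05 and higher with CREB, and in 24.5% of 408 lower ones. In wild-type thalamus it was found in 60.8% of 283 genes called higher and 22.4% of 134 called lower, against 34.0% of all tested there. These shares describe letters in a window and not binding.

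Of 13 tested members of the family and its dimer partners, Creb1 alone was called, against 0.0684% of all genes. Creb1 is the gene of the delivered protein, so its call is no result about the family. Crem, which encodes activators and the inducible repressor ICER, stood at 1.24, 1.10, 1.21 and 1.51 RPKM with mCherry and 1.60, 1.92, 1.56 and 1.76 with CREB. Its groups did not overlap, and it did not pass (log2 0.43 ± 0.09 SE, limma, adjusted p = 0.19). Atf1, the closest relative of CREB, differed by -0.07 (adjusted p = 0.87). None of 14 coactivators and SIK kinases was called. Crtc1 differed by -0.11 (adjusted p = 0.55), Crtc2 by 0.10, Crtc3 by 0.03, Crebbp (CBP) by 0.00, Ep300 (p300) by 0.02 and Sik3 by 0.06 (adjusted p = 0.72). Of 30 kinases, phosphatases and enzymes of cAMP upstream of CREB none was called. Of these, 8 were lower and 1 higher at an unadjusted p under 0.05, against 3.81% and 4.62% of all genes. Camk4, a calcium-dependent kinase that phosphorylates CREB, stood at 23.2 to 26.2 RPKM with mCherry and 19.9 to 21.8 with CREB (log2 -0.18 ± 0.04, adjusted p = 0.24), and Ppp3ca, the catalytic subunit of calcineurin, differed by -0.15 (adjusted p = 0.24).

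The 44 textbook target genes of CREB had a median log2 difference of 0.01, beside 0.002 for all genes tested. None was called. At an unadjusted p under 0.05, 10 were higher (Scg2, Sik1, Crem, Nr4a3, Sst, Gadd45b, Nr4a2, Bdnf, Pde4d and Vgf) and Egr2 was lower. Over all genes 4.62% were higher and 3.81% lower at that p. Nr4a3, an orphan nuclear receptor gene, stood at 3.61, 4.02, 3.29 and 4.61 RPKM with mCherry and at 4.57, 5.04, 4.00 and 5.74 with CREB (log2 0.33 ± 0.07 SE, limma, adjusted p = 0.20). Bdnf, a neuronal growth factor, differed by 0.26 at an unadjusted p of 0.023. Of the 20 immediate early genes, which neuronal activity induces, none was called. At an unadjusted p under 0.05, 4 were higher (Nr4a3, Jund, Nr4a2 and Fosl2) and 2 lower (Klf4 and Egr2). Their median was -0.08, and it ran from -0.13 to 0.02 with each library left out. The median of the textbook targets ran from -0.04 to 0.05 in the same way, so neither list had a stable direction.

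Dense-core vesicle and prohormone processing genes numbered 20, with Ptprn called. The median log2 difference was 0.06 (0.04 to 0.08 with each library left out). At an unadjusted p under 0.05, 9 were higher and Pcsk2 was lower, against 4.62% and 3.81% of all genes. Beside Ptprn and Scg2 these were Pam, the enzyme that amidates peptides (0.14), Chgb (0.11) and Scg3 (0.11), granins, and Vgf (0.11), Cpe (0.07), Cplx1 (0.11) and Syt7 (0.08). Without rescaling between libraries 2 were higher and none lower at that p. The neuropeptide list of 18 genes includes Npy2r, a receptor gene. Of the 18, 5 were higher (Pnoc, Npy, Cort, Sst and Nmb) and Tac2 was lower at an unadjusted p under 0.05. In all, 9 of the 18 lay above 0, with a median of 0.00. Sst stood at 100, 108, 102 and 121 RPKM with mCherry and at 133, 134, 106 and 126 with CREB, overlapping as deposited (log2 0.23 ± 0.05 SE, limma, adjusted p = 0.20).

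Interneurons make most of these peptides. Of 16 interneuron markers, Sst alone was higher at an unadjusted p under 0.05, and Gad1, Lhx6, Lamp5 and Chodl were lower (none called). The shares over all genes were 4.62% higher and 3.81% lower. Vip, another interneuron peptide chosen after its values were seen, differed by -0.08 (adjusted p = 0.83). Gad1, which synthesizes GABA, stood at 21.3, 24.1, 25.3 and 25.1 RPKM with mCherry and at 21, 18.3, 19.6 and 21 with CREB, without overlap (log2 -0.24 ± 0.07, limma, adjusted p = 0.41). In Sleepy cortex Gad1 was called lower (log2 -0.50). Gad1os overlaps it on the opposite strand. All 12 striatum markers had lower values with CREB and none was called. Their median log2 difference was -0.42, and it was -0.14 without CREB replicate 2, -0.73 without CREB replicate 4 and -0.74 without mCherry replicate 4. Both values without a replicate 4 rest on the same usual-kind libraries. The summed level of these markers was 150, 170, 175 and 96.8 RPKM in the mCherry libraries and 137, 77.3, 106 and 145 in the CREB libraries. Gad1 is expressed in striatum as well. Penk, Pdyn and Tac1 are striatum markers that are also on the neuropeptide and textbook target lists. Pde10a is also a textbook target, and it and Ppp1r1b are also on the list of kinases and phosphatases upstream of CREB. The part of striatal tissue in the values of these genes and lists was not tested.

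**Figure D3:**
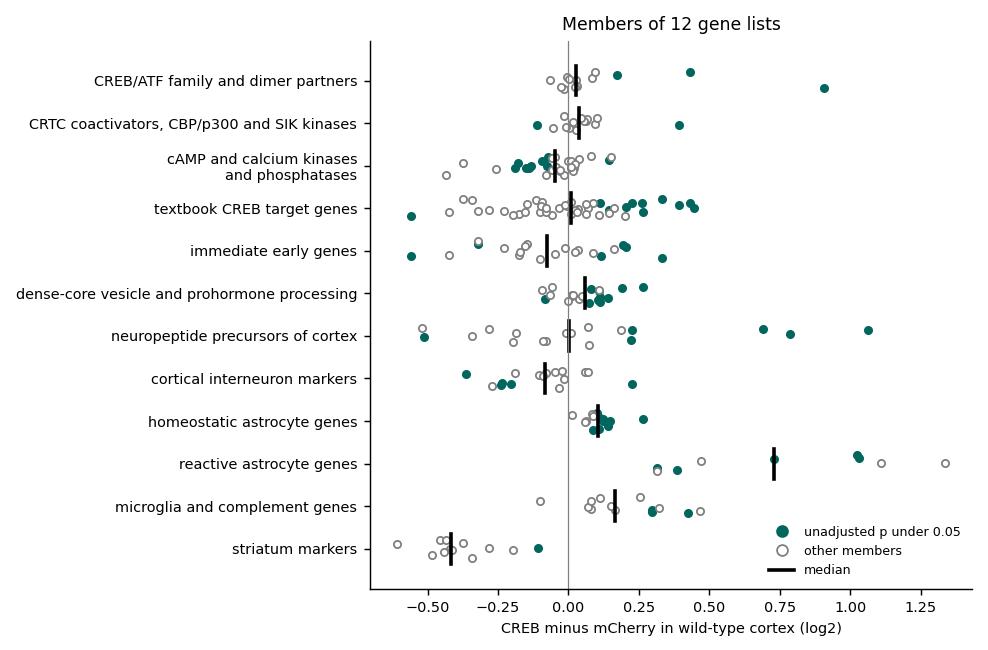
Log2 difference of CREB minus mCherry in wild-type cortex (x axis) for each tested member of 12 gene lists, with filled points at an unadjusted p under 0.05 and black bars at the list median. Granule genes have a median of 0.06, reactive astrocyte genes 0.73 and striatum markers -0.42, beside 0.002 for all genes.

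No gene of glia passed the test. All 14 homeostatic astrocyte genes were above 0, with a median log2 difference of 0.11, and 9 had an unadjusted p under 0.05. Over all genes 51.0% were above 0, and 4.62% were higher at such a p. Without rescaling 13 of the 14 astrocyte genes were above 0 and 1 had such a p. Aqp4, the water channel of astrocyte endfeet, stood at 12.6, 14.8, 14.6 and 15.8 RPKM with mCherry and at 17.6, 18.4, 15.5 and 16.9 with CREB (log2 0.27 ± 0.05 SE, limma, adjusted p = 0.16). Reactive astrocyte genes had a median of 0.73 over 9 tested, and their summed level was 23.9, 26.2, 28.4 and 28.2 RPKM with mCherry and 32.8, 87.1, 41.3 and 33.8 with CREB. CREB replicate 2 stood far above the others. Gfap, the intermediate filament of astrocytes, was at 46.8 RPKM in that library, at 19.9 to 22.6 in the other CREB libraries and at 14.6 to 17.0 with mCherry (log2 0.73, adjusted p = 0.53). Without CREB replicate 2 its difference was 0.47 (adjusted p = 0.13) and the list median was 0.23. Steap4, with a log2 difference of 1.03 over all libraries, was under the filter in that fit. The medians are thus not of the same genes. The complement gene C4b stood at 3.32, 8.92, 6.11 and 2.83 RPKM with CREB and at 2.21, 2.51, 2.87 and 1.85 with mCherry, so that its groups overlapped. The part of CREB replicate 2 in other results of the comparison was not tested beyond leaving it out. Microglia and complement genes had a median of 0.17, with 3 of 13 higher at an unadjusted p under 0.05. No list other than the CREB family, the granule genes and the CRH system held a called gene.

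The same genes were read in the 8 cortex libraries of Sleepy mice, where CREB against eGFP called 11 of 16317 genes (0.0674%). With the replicate number as a block none passed, and 2 to 6 did with each library left out, the fewest without CREB replicate 4 or eGFP replicate 1. Of the 11 genes called in wild-type cortex 10 were tested there, all 10 had the same sign, and Creb1, Rell2, Fchsd1 and Cenpa were called. Over all genes tested in both, 60.0% had the same sign. Crhbp stood at 2.93 to 3.23 FPKM with eGFP and 4.35 to 7.56 with CREB in Sleepy cortex (log2 0.86 ± 0.14 SE, limma, adjusted p = 0.092). Cort stood at 0.552 to 1.30 FPKM against 3.00 to 6.37, 4.25-fold (adjusted p = 0.065), and Pnoc at 0.606 to 1.18 against 1.87 to 2.21, 2.21-fold (adjusted p = 0.081). For all 3 genes the Sleepy groups did not overlap. Other lists are given by their medians. Immediate early genes had a median of 0.24 in Sleepy cortex beside -0.08 in wild-type cortex, and 8 of 20 had the same sign. Textbook targets had a median of 0.20 beside 0.01, with 29 of 44 of the same sign. Reactive astrocyte genes had a median of 0.07 over 7 tested, beside 0.73 over 9 in wild-type cortex, with 4 of 7 of the same sign. Microglia and complement genes had 0.00 beside 0.17. Homeostatic astrocyte genes had 0.16 beside 0.11, with 14 of 14 of the same sign. Granule genes had 0.10 beside 0.06, with 17 of 20 of the same sign. The difference of these medians was not tested. Of the genes with an unadjusted p under 0.05 in wild-type cortex, 75.3% of 725 higher and 77.7% of 600 lower ones had the same sign in Sleepy cortex.

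Genes called in Sleepy cortex and not in wild-type cortex were read back in wild-type cortex. Trp53inp2, a protein of autophagy, stood at 14.0, 15.0, 16.1 and 20.3 RPKM with mCherry and at 18.1, 21.4, 17.7 and 20.6 with CREB (log2 0.28 ± 0.06 SE, limma, adjusted p = 0.19), beside 0.47 in Sleepy cortex (adjusted p = 0.007). Gpr3, a receptor that raises cAMP, differed by 0.13 (adjusted p = 0.79), beside 1.07 in Sleepy cortex (adjusted p = 0.047). Gad1, which was called lower in Sleepy cortex (log2 -0.50), differed by -0.24 in wild-type cortex. No gene of 16245 had an adjusted p under 0.05 in the test of wild-type against Sleepy cortex by limma (0.0%), 730 had an unadjusted p under 0.05 (4.49%), and voom called 0. That test does not show that the effects are alike.

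In wild-type thalamus CREB against mCherry called 575 of 16889 genes (3.4%), of which 389 rose (2.3%) and 186 fell (1.1%). With the replicate number as a block 200 passed, and 187 to 567 did with each library left out, the fewest without CREB thalamus replicate 2. Of these, 549 were tested in cortex, and 84.5% had the same sign there, against 61.1% of all genes tested in both regions. Of the 369 genes called higher in thalamus and tested in cortex, 320 were above 0 in cortex, with a median log2 difference of 0.11 beside 0.31 in thalamus. The 180 called lower had a median of -0.06 in cortex beside -0.26 in thalamus. Of the 14 homeostatic astrocyte genes 6 were called higher in thalamus, against 2.3% of all genes, and 12 had the same sign in both regions. Of the 20 granule genes 1 was called higher and 1 lower in thalamus, and 17 had the same sign in both regions. Sik1 differed by 0.39 in cortex and rose by 0.63 in thalamus (adjusted p = 0.0013). Crem differed by 0.43 and rose by 0.56 (adjusted p = 0.011), and Pnoc differed by 0.69 and rose by 0.75 (adjusted p = 0.0071). Cacna1s, the calcium channel subunit of skeletal muscle, was at 0.0249 to 0.0794 RPKM with mCherry and 0.119 to 0.193 with CREB in cortex (log2 0.75, adjusted p = 0.28) and rose by 2.15 in thalamus (adjusted p = 0.00064).

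**Figure D4:**
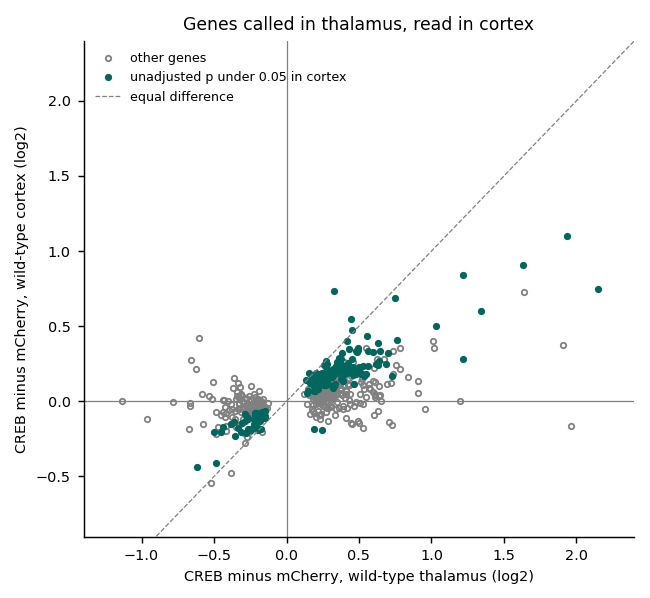
Log2 difference of CREB minus mCherry in wild-type thalamus (x axis) and wild-type cortex (y axis) for the 549 genes called in thalamus and tested in cortex, 1 point per gene, with the dashed line at equal differences. Genes called higher have a median of 0.31 in thalamus and 0.11 in cortex.

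Of the 11 genes called in wild-type cortex 10 were tested in thalamus, and 8 had the same sign, against 61.1% of all genes. Creb1, Cenpa, Ptprn, Rell2 and Fchsd1 were called there too. Crhbp and Mustn1 had the opposite sign. Crhbp was at 0.379 to 1.09 RPKM with mCherry and 0.321 to 1.14 with CREB in thalamus (log2 -0.09, adjusted p = 0.95), and Mustn1 differed by -0.08 (adjusted p = 0.93). The test of the difference between the regions did not pass for Crhbp (adjusted p = 0.80) or Mustn1 (0.17). Cort was at 0 to 0.0635 RPKM in all thalamus libraries and was not tested there. Over all genes, 14 of 16641 (0.0841%) had an adjusted p under 0.05 in the test of the regions, Creb1 among them, and 1 passed with the replicate number as a block. The number passing ran from 1 without CREB thalamus replicate 4 to 26 without CREB thalamus replicate 1. Because all thalamus libraries are of the low kind, the region is largely confounded with the kind of library in that test.

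**Figure D5:**
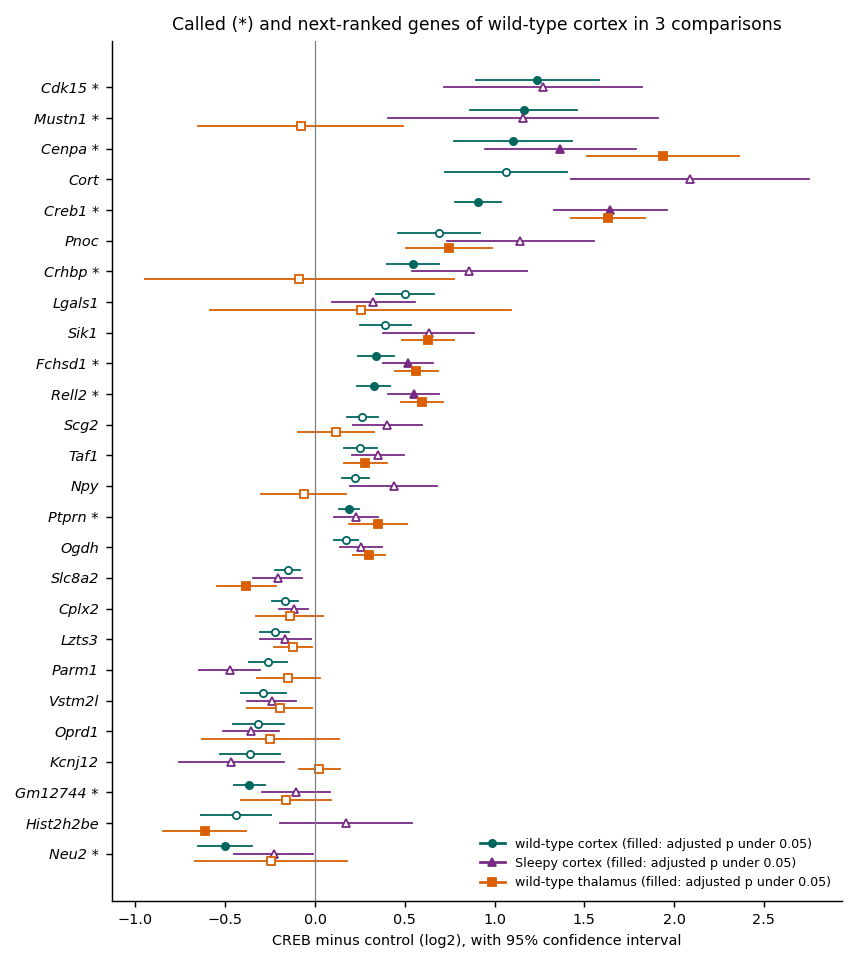
Log2 difference of CREB minus control with its 95% confidence interval (x axis) for the called genes (asterisk, Hist1h2bb left out) and the 16 next-ranked genes of wild-type cortex, in wild-type cortex (circles), Sleepy cortex (triangles) and wild-type thalamus (squares), filled where the adjusted p is under 0.05. Creb1 differs by 0.91, 1.65 and 1.63 in the 3 comparisons.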

How the data were processed

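Polyadenylated RNA of 28 libraries was used: CREB and mCherry in wild-type cortex, and, beside them, the groups of Sleepy cortex, wild-type thalamus and HDAC4CA in wild-type cortex. GRCm38 is the build, and edgeR 3.28.1, featureCounts, STAR 2.6.1a and CASAVA 1.9 are the authors' tools, per the submitters' processing notes. No source used here states the strand setting or the annotation release. Per the file headers the authors deposited RPKM for the wild-type groups and FPKM for the Sleepy groups.

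Each file held 49585 rows, and 26 symbols turned into dates were left out, as were 93 repeats. With GENCODE M21 exon lengths, 94.5 to 95.3% of low values of the 8 libraries lay within 0.1 of a whole read, which gave each library's reads. These reads were used for depth, scaling, the filter and voom. Values were divided by TMM factors (0.899 to 1.109), and log2(value + 0.1) was fitted with limma 3.58.1 (trend, robust) for genes with a mean of at least 10 reads, or a mean value of at least 1 without an exon length, with the library kind (cut at a mean ribosomal protein log2 level of 2.5) as a term. Differences on this scale are smaller than true for low genes. P-values were adjusted by Benjamini-Hochberg over all genes. Genes named were all called genes, the next 8 by p in each direction with a mean of at least 2 CPM of recovered reads and no overlap within the usual kind, CREB family and cofactor genes, up to 4 members by p of each list described, and the 10 genes of smallest p called in Sleepy cortex and in thalamus. Other list members named were chosen after their values were seen.

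Same-numbered libraries deviated together from their group means (correlations 0.236, 0.129, 0.223 and 0.71). Within the usual kind the correlations were -0.004, -0.071 and -0.003, so the deviations shared by a number were those between library kinds. Beyond the kind, the replicate number was not seen to pair libraries. Members and lists were chosen with earlier results of these data known. Alternatives tried were the terms of the fit, the scaling, the pseudocount, the filter, voom, weights and each library left out. Values of some genes are not reported here.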

Additional observations from a re-analysis of the deposited data

Results flagged for a closer look

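Among groups of 4 libraries, 7 values stood apart from the rest of their group by Dixon's test, which chance passes in about 1 of 20 groups. The test was run on deposited values, not scaled between libraries, in 70 groups of the called, next-ranked and CREB family genes. Cort in mCherry replicate 1 was the lowest at 1.71 RPKM, beside 2.69 in the next library. In mCherry replicate 4, the low-kind library, Cplx2 was the highest at 175 RPKM (next 153), Ptprn at 63.9 (56.3), Mustn1 at 0.52 (0.363) and Hist2h2be at 1.88 (1.5). In CREB replicate 4, also of the low kind, Hist2h2be was the highest at 1.47 RPKM (1.03) and Parm1 at 8.79 (7.42). Of the 7 values, 6 were thus in the low-kind libraries. These libraries also had the highest TMM factors of their groups, 1.109 for mCherry replicate 4 and 1.058 for CREB replicate 4. The part of scaling in these values was not tested.

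Genes whose response to CREB differed between cortex and thalamus are given by the log2 difference of cortex minus thalamus (limma). It was less negative or higher in cortex for Rgs4 (0.68, adjusted p = 0.0065), Gm4204 (0.79, 0.015), Bok (0.65, 0.021), Necab1 (0.38, 0.05) and Sprn (0.39, 0.05). It was lower in cortex for Krt20 (-2.09, 0.012), Hagh (-0.51, 0.012), Dlk2 (-0.75, 0.021), Creb1 (-0.70, 0.037), Pitpnm1 (-0.33, 0.046) and E2f1 (-0.91, 0.05). Rgs4, a regulator of G protein signalling, stood at 64.1 to 83.8 RPKM with mCherry and 62.1 to 74.1 with CREB in cortex, and at 68.9 to 76.5 and 39.6 to 50.1 in thalamus. Krt20, a keratin, alone passed with the replicate number as a block (adjusted p = 0.0012). Mgarp (-2.12) was listed at 0 in all 8 cortex libraries and entered the test through thalamus alone, so its value is no measured difference in response. The thalamus libraries are all of the low kind, and region and library kind are largely confounded. Within the low kind, Creb1 differed by 0.97 in the 1 cortex pair and by 1.63 in thalamus.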

How the results depend on the processing

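In wild-type cortex the count of 11 called genes became 5 without the low-kind libraries, 1 with the replicate block, 6 without rescaling, 6 with a pseudocount of 1, 4 without the filter, 44 with voom, 1 with plain eBayes and, in an alternative chosen after seeing the data, 6 with the spread shared with the HDAC4CA libraries. Leaving out each library gave 1 to 5. Creb1 passed in every one of these, with a difference of 0.86 to 0.94 with each library left out. In Sleepy cortex the count of 11 became 0 with the replicate block, 42 without rescaling, 23 with the stricter filter, 103 with voom and 2 with plain eBayes, and 2 to 6 with each library left out. In thalamus the count of 575 became 200 with the block, 267 without rescaling, 240 without the filter and 249 with plain eBayes, and 187 to 567 with each library left out. For cortex against thalamus the count of 14 became 9 without the kind term, 1 with the block, 4 without rescaling, 25 with voom, 5 with plain eBayes and 25 with quality weights, and 1 to 26 with each library left out. It was not run without the low-kind libraries, which include all of thalamus. For wild-type against Sleepy cortex the count of 0 became 3 without the filter, and 0 to 1 with each library left out. Called list members numbered 3, and 1 with the block, 1 without the filter, 7 with the stricter filter, 14 with voom, 1 with plain eBayes and 1 with the shared spread, and 1 to 3 with each library left out. The cause of these changes was not tested. The differences of the 11 called and 16 next-ranked genes kept their sign in every setting that tested them. These genes were chosen by p from the same libraries, and the 16 also by groups without overlap within the usual kind. Their sign was thus largely set by the choice and is no separate support. The medians of the textbook targets (-0.04 to 0.05), immediate early genes (-0.13 to 0.02) and neuropeptide genes (-0.05 to 0.06) changed sign with a library left out. Genes of a mean of 10 to 20 reads, such as Cdk15 and Mustn1, are limited by depth.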
